A study of Mus musculus with 6 samples.

Results

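The genes that divide the retina into a dorsal and a ventral domain were examined as a group of 10 among the 21744 genes of an RNA-seq table from the mouse retina at postnatal day 7 (P7). They were taken by symbol. The 6 dorsal genes were *Tbx5*, *Tbx3*, *Tbx2*, *Bmp4*, *Aldh1a1* and *Efnb2*, and the 4 ventral genes were *Vax1*, *Vax2*, *Ephb2* and *Aldh1a3*. All 10 were in the table and passed the filter on low values, since each averaged 0.1 FPKM or more. FPKM counts sequenced fragments per kilobase of transcript and per fixed number of mapped fragments, so levels can be set side by side between genes as well as between libraries.

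The study compared 3 control mice with 3 mice labelled *Lhx4* null, and each library held the RNA of the retinas of 1 mouse. *Lhx4* encodes a LIM-homeodomain transcription factor of developing bipolar cells. The study also cites earlier work that found its expression in cone photoreceptors. All mice were of the C57BL/6J; 129S6 mixed background and 7 days old. In the study, null mice carried an *Lhx4* allele flanked by loxP sites, an *Lhx4* allele with tdTomato knocked in, and Cre driven by *Six3* in the developing retina. For its recordings of retinal function the study described control mice as wild type or heterozygous for the loxP allele. For imaging of tdTomato it used controls carrying that allele. The sources used here do not give the alleles of each sequenced control. The pigment epithelium was taken off at dissection and the whole retina was lysed. Each value is therefore an average over dorsal and ventral retina, and fewer cells of a type and less RNA per cell cannot be told apart.

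Along the dorsal-ventral axis of the eye, BMP4 made in the dorsal optic cup turns on the T-box genes *Tbx5*, *Tbx3* and *Tbx2*, while the homeodomain factors VAX1 and VAX2 mark the ventral side. Both sides make retinoic acid with different enzymes, ALDH1A1 dorsally and ALDH1A3 ventrally, leaving a stripe between them where CYP26 enzymes degrade it. The axis is read out by ganglion cell axons through ephrin-B ligands, high dorsally, and EphB receptors, high ventrally. In the mouse it is also seen in cones, since M-opsin prevails dorsally and S-opsin ventrally.

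None of the 10 genes differed between the groups at an adjusted p below 0.05 by limma fitted to all 15200 genes tested, where 34 genes, or 0.224%, passed. At an unadjusted p below 0.05 the count was also 0 of 10, beside 8.15% of all genes tested. The median log2 fold change was 0.23 for the dorsal genes and 0.22 for the ventral genes, beside 0.011 for all genes tested. The mean level of the dorsal genes over that of the ventral genes differed by 0.019 on the log2 scale between the groups, less than the spread between replicates. All log2 values are of FPKM + 0.1, *Lhx4* null minus control, a scale that understates the change of low genes.

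The retina was well represented in every library. *Crx*, a photoreceptor transcription factor, ranged from 502 to 589 FPKM and *Rax*, an eye field factor, from 39.8 to 56.2 FPKM. The targeted gene itself went against the label. Control retinas had *Lhx4* values of 20.9, 23.8 and 19.1 FPKM, and retinas labelled *Lhx4* null had 31.2, 30.3 and 29.0 FPKM, with no overlap (log2 fold change 0.51, 95% confidence interval 0.30 to 0.72, adjusted p = 0.0978). FPKM per gene pools all exons, so it is no test of whether the allele was inactivated. *Bhlhe23*, a transcription factor of rod bipolar cells named here after its values were seen, stood at 10.2, 13.0 and 10.6 FPKM in control and at 0.814, 0.563 and 0.830 FPKM in retinas labelled *Lhx4* null. Every direction given below rests on the labels.

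The libraries labelled *Lhx4* null were shallower than the controls. The lowest FPKM values move in steps of whole fragments, and among 2195 genes with a single annotated transcript longer than 1500 bases the step of 1 fragment gave an estimated depth for each library. The controls came to about 33600000, 26900000 and 35100000 fragments and the other 3 libraries to about 16600000, 20300000 and 23200000. The shallowest, *Lhx4* null replicate 1, thus had 47.1% of the depth of the deepest. Of the values between 0.5 and 1.5 fragments, 73.9% to 80.9% per library lay within 5% of 1 fragment. These are estimates from the values and not counts from the sequencer.

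Among the dorsal transcription factors, *Tbx2* was the most abundant of the 10 genes. It stood at 40.1, 39.3 and 36.9 FPKM in control and at 28.9, 43.7 and 31.2 FPKM in retinas labelled *Lhx4* null. Its lowest and its highest value both fell in the *Lhx4* null group, whose SD of 7.96 FPKM (n = 3) compares with 1.67 FPKM (n = 3) among the controls. The log2 fold change was -0.19 (95% confidence interval -0.51 to 0.14, adjusted p = 0.752). Without *Lhx4* null replicate 2 the remaining libraries no longer overlapped and the value was -0.37, with an adjusted p of 0.333, whereas without replicate 1 it was -0.068.

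*Tbx3*, a repressor related to *Tbx2*, was measured at 4.59, 4.45 and 5.44 FPKM in control and at 5.08, 7.70 and 6.01 FPKM in retinas labelled *Lhx4* null. Here 2 of the 3 *Lhx4* null libraries lay above all controls. The log2 fold change of 0.35 had an interval of -0.012 to 0.72 and an adjusted p of 0.628. When libraries were left out in turn, it ranged from 0.20 without *Lhx4* null replicate 2 to 0.49 without replicate 1.

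*Tbx5*, a T-box factor of the dorsal retina, was low at this age. Its control values were 0.796, 1.11 and 0.854 FPKM, and its *Lhx4* null values were 1.16, 1.38 and 0.826 FPKM. With the longest annotated transcript of 3942 bases these correspond to an estimated 75 to 118 fragments per library. The groups overlapped, and the log2 fold change was 0.25 (95% confidence interval -0.26 to 0.75). Without *Lhx4* null replicate 2 it was 0.096, and without replicate 3 it was 0.43.

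*Bmp4*, the dorsal ligand, was the least abundant of the 10 genes. Control libraries held 0.305, 0.380 and 0.174 FPKM, and *Lhx4* null libraries 0.641, 0.271 and 0.381 FPKM. The estimated number of fragments was 11 to 22 per library, and the high value of *Lhx4* null replicate 1 rested on about 22 fragments. The log2 fold change was 0.44, with the interval reaching from -0.31 to 1.19, and 0.15 with a pseudocount of 1 FPKM. It ranged from 0.17 without *Lhx4* null replicate 1 to 0.66 without replicate 2, and without control replicate 3 it was 0.21.

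**Figure D1:**
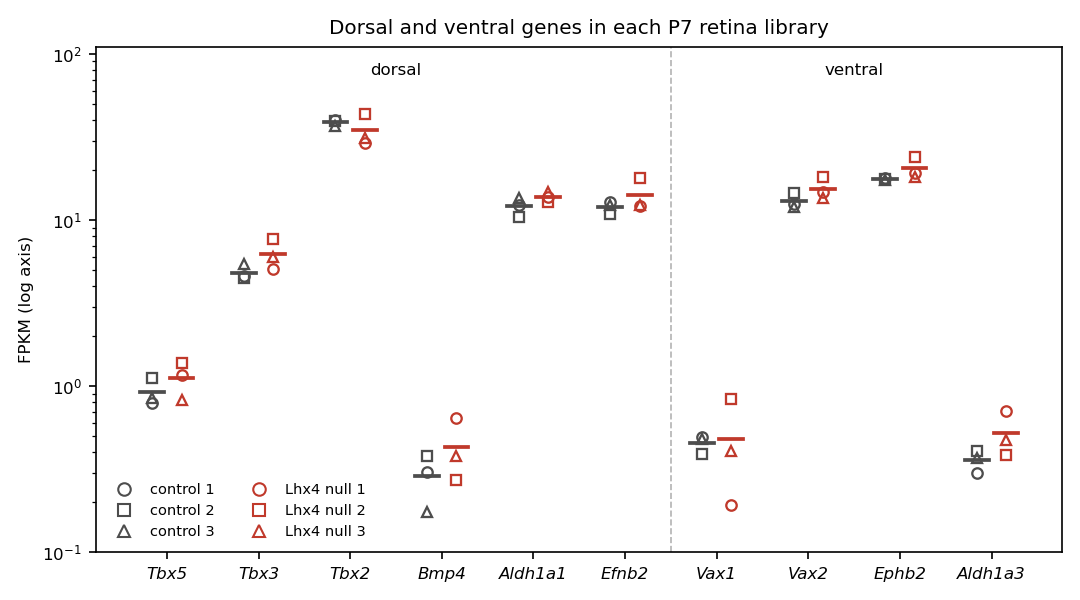
FPKM of the 6 dorsal and 4 ventral genes in each library, on a log axis. Points are libraries (control in grey, *Lhx4* null in red, the replicate number by shape) and short bars are group means over 3 libraries. The groups overlap for every gene but *Ephb2*, where the lowest *Lhx4* null library, at 18.1 FPKM, stands just above the highest control, at 17.9 FPKM.

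The retinoic acid enzymes differed widely in level between the 2 sides. *Aldh1a1*, the dorsal enzyme, stood at 12.4, 10.5 and 13.5 FPKM in control and at 13.8, 12.8 and 14.7 FPKM in retinas labelled *Lhx4* null. The enzyme had a log2 fold change of 0.19 (95% confidence interval -0.063 to 0.44, adjusted p = 0.692), and 2 of 3 *Lhx4* null libraries exceeded every control. The value was 0.087 without control replicate 2 and 0.27 without control replicate 3. Reads of *Aldh1a1* may be shared with *Aldh1a7*, a close paralog, which was chosen after its values were seen. *Aldh1a7* was listed at 0.318 to 1.11 FPKM, so its level was far below that of *Aldh1a1* in all 6 libraries.

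*Aldh1a3*, the ventral enzyme, was near the low end at 0.300, 0.406 and 0.372 FPKM in control and 0.714, 0.385 and 0.475 FPKM in retinas labelled *Lhx4* null. *Lhx4* null replicate 1 was highest, as it was for *Bmp4*, on an estimated 41 fragments. The log2 fold change was 0.42 (95% confidence interval -0.15 to 0.99), with 0.21 without that library and 0.58 without replicate 2. With a pseudocount of 1 FPKM it was 0.16.

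Of the ephrin system, *Efnb2* encodes the dorsal ligand ephrin-B2 and *Ephb2* a ventral receptor for it. *Efnb2* had 12.9, 10.8 and 12.3 FPKM in control and 12.2, 18.0 and 12.4 FPKM in retinas labelled *Lhx4* null. The single high library was *Lhx4* null replicate 2, and without it the log2 fold change fell from 0.22 to 0.036. Without replicate 1 it was 0.32. *Efnb2* also marks arterial endothelium. The summed level of 6 arterial markers was 11.7, 10.4 and 11.2 FPKM in control and 12.9, 14.4 and 13.6 FPKM in retinas labelled *Lhx4* null, led by *Hey1*. Of the 5 arterial markers tested, 4 were positive, with a median log2 fold change of 0.25. The exception was *Sox17*, named after its values were seen, at -0.30. The 8 general endothelial markers had a median of -0.19 with 7 negative, and 6 of them were lowest in *Lhx4* null replicate 2, the library highest in *Efnb2*. The part of these cells in the *Efnb2* values was not tested.

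*Ephb2* was the one gene whose groups did not overlap, beside 14.2% of all genes tested. The controls were tightly placed at 17.9, 17.6 and 17.5 FPKM, and 19.3, 24.0 and 18.1 FPKM were measured in the *Lhx4* null libraries. Its log2 fold change was 0.20 (95% confidence interval -0.047 to 0.44, adjusted p = 0.681). Without *Lhx4* null replicate 2 it was 0.078, and without replicate 3 it was 0.28. Without overlap, a two-sided exact permutation test gives p = 0.1 by construction, the smallest value that 3 libraries against 3 allow. It therefore adds nothing to the separation of the groups. One gene of 10 is close to the share over all genes.

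Of the ventral homeodomain factors, *Vax2* was well expressed at 12.5, 14.6 and 11.97 FPKM in control and 14.7, 18.1 and 13.6 FPKM in retinas labelled *Lhx4* null. Control replicate 2 and *Lhx4* null replicate 3 overlapped, and the log2 fold change was 0.24 (95% confidence interval -0.045 to 0.52, adjusted p = 0.667). It ranged from 0.12 without *Lhx4* null replicate 2 to 0.33 without replicate 3. *Vax1*, which also marks the optic nerve head, was low. Its controls agreed at 0.496, 0.392 and 0.479 FPKM, whereas its *Lhx4* null libraries held both extremes, 0.194 FPKM in replicate 1 and 0.838 FPKM in replicate 2, with 0.408 FPKM in replicate 3.

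The transcript of 1044 bases used to convert *Vax1* gave about 3 fragments in *Lhx4* null replicate 1 and about 18 in replicate 2. Its log2 fold change of -0.093 had the widest interval of the 10 genes, -0.98 to 0.80. The sign turned to 0.32 without *Lhx4* null replicate 1, and without replicate 2 the value was -0.52.

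**Figure D2:**
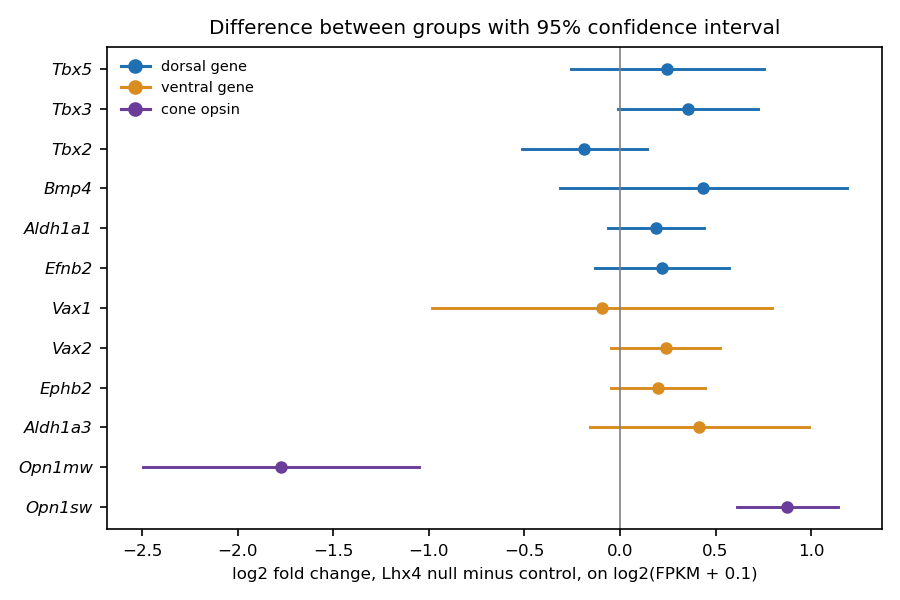
Log2 fold change of each dorsal gene (blue), ventral gene (orange) and cone opsin (purple), *Lhx4* null minus control, with its 95% confidence interval from limma on log2(FPKM + 0.1). The interval of every dorsal and ventral gene crosses 0, whereas those of *Opn1mw*, -2.50 to -1.05, and *Opn1sw*, 0.61 to 1.14, do not.

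Ordered by control mean, *Tbx2* (38.8 ± 1.67 FPKM, SD, n = 3) and *Ephb2* (17.7 ± 0.226 FPKM) came first. *Vax2*, *Aldh1a1* and *Efnb2* followed at 13.0 ± 1.36, 12.1 ± 1.54 and 12.01 ± 1.06 FPKM, and the ranges of these 3 overlapped. *Tbx3* at 4.83 ± 0.536 FPKM and *Tbx5* at 0.921 ± 0.170 FPKM stood apart from their neighbours. The lowest 3, *Vax1*, *Aldh1a3* and *Bmp4*, lay at 0.456 ± 0.0557, 0.359 ± 0.0541 and 0.286 ± 0.104 FPKM, and each overlapped the next in range. The mean over all 6 libraries placed *Tbx2* above 90.1% of all genes in the table and *Bmp4* above 36.4% of them.

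The highest values gathered in 1 library. *Lhx4* null replicate 2 held the highest value of 7 of the 10 genes, 4 dorsal and 3 ventral. Of all 15200 genes tested, 27.3% were highest in that library, the largest share of the 6. *Lhx4* null replicate 1 held the highest value of *Bmp4* and *Aldh1a3*, replicate 3 that of *Aldh1a1*, and no control library the highest value of any of the 10 genes. The control libraries held the highest value of 9.57%, 15.9% and 13.4% of all genes tested.

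The same library was low in *Sag*, the rod arrestin and the most abundant gene of the rod list. It stood at 945, 1008 and 892 FPKM in control and at 927, 623 and 739 FPKM in retinas labelled *Lhx4* null (adjusted p = 0.622). Thus replicates 2 and 3 of the *Lhx4* null group lay below every other library. Of the 6 rod genes, 4 were lowest in replicate 2, whereas *Nr2e3*, named after its values were seen, was highest there at 829 FPKM. The list median was -0.31 with 5 negative, and the part of this in the values of the dorsal and ventral genes was not tested. Without *Lhx4* null replicate 2 the median log2 fold change was 0.15 for the dorsal genes and 0.099 for the ventral genes. In that comparison of 3 libraries with 2, the groups did not overlap for *Bmp4*, *Aldh1a1*, *Ephb2* and *Aldh1a3*, which were higher, and for *Tbx2*, which was lower, beside 20.1% of all genes. Without other libraries the count ranged from 1 to 3, beside 19.3% to 32.2% of all genes. The separation of *Bmp4* without *Lhx4* null replicate 2 rested on a very small gap. It was 0.3806 FPKM in *Lhx4* null replicate 3 against 0.3801 FPKM in control replicate 2, on an estimated 18 and 21 fragments.

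**Figure D3:**
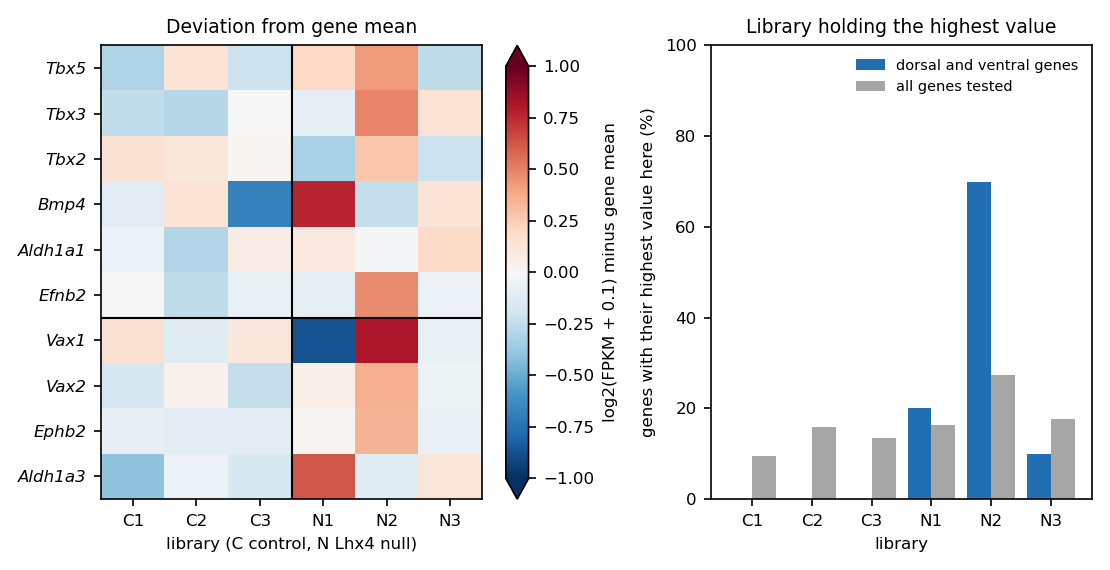
Left, log2(FPKM + 0.1) of each gene minus its mean over the 6 libraries, with dorsal genes above the line (C is control, N is *Lhx4* null, with the replicate number). Right, the percentage of the 10 genes (blue) and of all genes tested (grey) with their highest value in each library. *Lhx4* null replicate 2 is highest for 7 of 10 genes on both sides of the axis and for 27.3% of all genes.

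To ask whether the balance of the axis moved, the mean log2 level of the dorsal genes was set against that of the ventral genes in each library. Dorsal minus ventral was 0.80, 0.76 and 0.73 in control and 0.90, 0.66 and 0.78 in retinas labelled *Lhx4* null. The control values lay inside the range of the *Lhx4* null values, and the difference between group means, 0.019, was smaller than the pooled SD of 0.089 between replicates. It ranged from -0.042 without *Lhx4* null replicate 1 to 0.079 without replicate 2. Taken separately, both means were higher in the *Lhx4* null group by more than their pooled SD, and neither overlapped between the groups. The dorsal mean was 2.24, 2.26 and 2.19 in control and 2.42, 2.57 and 2.32 in retinas labelled *Lhx4* null, a difference of 0.21 beside a pooled SD of 0.091. The ventral mean was 1.441, 1.504 and 1.464 in control and 1.524, 1.911 and 1.546 in retinas labelled *Lhx4* null, a difference of 0.19 beside 0.16. On both sides *Lhx4* null replicate 2 was highest, and without it the dorsal difference was 0.14 and the ventral difference 0.065. With genes of at least 1 FPKM only, which leaves out *Bmp4*, *Vax1* and *Aldh1a3*, the difference was -0.055, also within the pooled SD.

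The opposed pairs of the axis gave the same picture and were described without a test. The log2 level of *Tbx5* minus that of *Vax2* was -3.69 ± 0.12 in control and -3.69 ± 0.18 in retinas labelled *Lhx4* null (SD, n = 3 each). For *Efnb2* minus *Ephb2* the values were -0.56 ± 0.12 and -0.54 ± 0.12. *Aldh1a1* minus *Aldh1a3* was 4.73 ± 0.31 in control and 4.50 ± 0.36 in retinas labelled *Lhx4* null, a difference of -0.23 that is below the pooled SD of 0.33. That difference was -0.40 without control replicate 2 and -0.023 without *Lhx4* null replicate 1.

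The cone opsins, where the axis is also visible, differed more between the groups. *Opn1sw*, the S-opsin that prevails in ventral cones, rose from 103, 92.9 and 85.2 FPKM in control to 201, 153 and 164 FPKM in retinas labelled *Lhx4* null (log2 fold change 0.88, 95% confidence interval 0.61 to 1.14, adjusted p = 0.0306). It was past the threshold in 5 of 8 alternative settings and in 1 of 6 fits that left out a library. Adjusted p ranged from 0.0271 to 0.329, while the log2 fold change stayed between 0.76 and 0.96. *Opn1mw*, the M-opsin that prevails dorsally, stood at 1.41, 2.75 and 1.46 FPKM in control and at 0.699, 0.351 and 0.367 FPKM in retinas labelled *Lhx4* null. Its groups did not overlap, but at a log2 fold change of -1.77 its adjusted p was 0.0968. With a pseudocount of 1 FPKM the value was -0.94. *Opn1mw* minus *Opn1sw* on the log2 scale was -5.63 ± 0.54 in control and -8.28 ± 0.26 in retinas labelled *Lhx4* null, and the groups did not overlap. That difference holds the same low values of *Opn1mw*, and other pseudocounts were not tried for it. The summed level of 7 cone genes, both opsins included and *Opn1sw* the most abundant, was 214, 200 and 192 FPKM in control and 328, 244 and 274 FPKM in retinas labelled *Lhx4* null. The genes of the list went both ways. Groups did not overlap for 5 of the 7, 3 higher and 2 lower, and 5 were below an unadjusted p of 0.05, beside 14.2% and 8.15% of all genes. The median log2 fold change was 0.068. *Arr3*, the cone arrestin, named after its values were seen, stood at 28.7, 29.7 and 30.2 FPKM in control and at 16.9, 8.53 and 12.7 FPKM in retinas labelled *Lhx4* null (adjusted p = 0.0769).

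**Figure D4:**
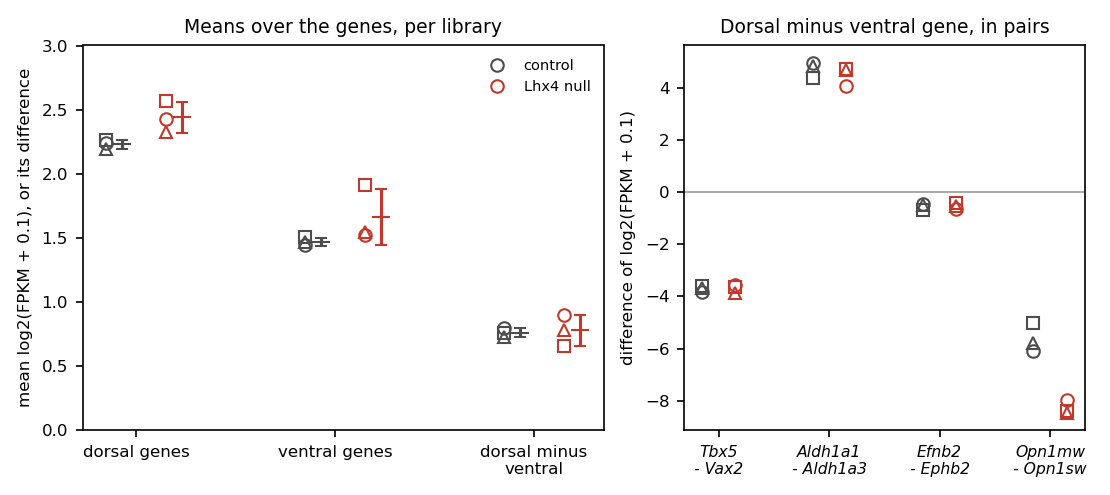
Left, mean log2(FPKM + 0.1) of the 6 dorsal and the 4 ventral genes in each library and their difference, with group mean ± SD (n = 3). Right, the log2 level of a dorsal gene minus that of a ventral gene in each library. The difference of the means is 0.76 in control and 0.78 in retinas labelled *Lhx4* null, while the opsin pair separates the groups at -5.63 and -8.28.

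The wider BMP pathway gave no call. Of 34 listed genes (ligands, receptors, SMAD proteins, targets and antagonists) 32 were tested, 0 passed at the adjusted threshold, 0 were below an unadjusted p of 0.05, and the median log2 fold change was 0.027. *Bmp7*, a second BMP ligand of the eye, was the one gene without overlap, beside 14.2% of all genes, and stood at 2.15, 2.45 and 1.78 FPKM in control and at 2.75, 2.54 and 2.49 FPKM in retinas labelled *Lhx4* null (adjusted p = 0.666). The target genes *Id1* and *Id3*, named here after their values were seen, overlapped between the groups at 14.9 to 18.8 FPKM and 21.0 to 24.8 FPKM.

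Of 19 further genes of retinoic acid handling, 18 were tested and 0 passed, with a median log2 fold change of 0.19 and 16 positive values, beside 53.3% of all genes. Groups did not overlap for 5 of them, all higher in retinas labelled *Lhx4* null, beside the 14.2% of all genes. *Rxrg*, a retinoid X receptor of cones and other retinal cells, stood at 7.83, 5.79 and 7.74 FPKM in control and 10.02, 15.8 and 13.1 FPKM in retinas labelled *Lhx4* null (log2 fold change 0.85, 95% confidence interval 0.43 to 1.26, adjusted p = 0.189). *Stra6*, a retinol transporter known from the pigment epithelium, stood at 3.72, 4.24 and 3.61 FPKM and 5.11, 5.94 and 6.18 FPKM in the same order (log2 fold change 0.56, adjusted p = 0.173). Below an unadjusted p of 0.05 there were 3 genes, beside 8.15% of all genes, and the *Lhx4* null libraries lay above the controls for both named genes without reaching the threshold. The 9 pigment cell markers, among them genes that share the retinoid cycle, summed to 45.2, 39.4 and 22.1 FPKM in control and 48.0, 63.0 and 84.6 FPKM in retinas labelled *Lhx4* null. *Ttr* was the most abundant of them, and *Rpe65*, which defines the pigment epithelium, was listed at 0.457 to 1.61 FPKM. The part of these markers in the *Stra6* values was not tested.

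Among 20 other Eph receptors and ephrins, 18 were tested and 0 passed, but 8 were below an unadjusted p of 0.05 and 7 had no overlap, 4 higher and 3 lower, beside 8.15% and 14.2% of all genes tested. The median log2 fold change was 0.13. *Efnb1*, another ephrin-B ligand, stood at 6.67, 6.48 and 7.22 FPKM in control and 7.52, 10.6 and 9.32 FPKM in retinas labelled *Lhx4* null (adjusted p = 0.484). *Epha4*, a receptor that binds both ephrin classes, had a log2 fold change of 0.37 at the same adjusted p. Of the 3 lower genes, *Ephb6* was named after its values were seen, and the other two were receptors of the EphA class, known for the nasal-temporal map. *Epha3* stood at 3.91, 3.72 and 3.96 FPKM in control and 1.93, 2.50 and 2.38 FPKM in retinas labelled *Lhx4* null (log2 fold change -0.75, 95% confidence interval -1.05 to -0.45, adjusted p = 0.088). *Epha7* had a log2 fold change of -0.70 with an adjusted p of 0.211, which was 0.0394 at -0.87 without *Lhx4* null replicate 1 and from 0.190 to 0.678 under every other alternative.

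Other transcription factors of the eye axes were mostly on the positive side, at a median log2 fold change of 0.19 with 9 of 10 positive, beside 53.3% of all genes tested, and 0 past the threshold. Of the 10 genes, 3 were below an unadjusted p of 0.05 and 3 had no overlap, all higher, beside 8.15% and 14.2% of all genes. *Zic1* stood at 5.45, 3.43 and 5.35 FPKM in control and 5.63, 6.94 and 6.39 FPKM in retinas labelled *Lhx4* null (adjusted p = 0.605). *Nr2f1*, which encodes the nuclear receptor COUP-TFI, had a log2 fold change of 0.27 (adjusted p = 0.562) with no overlap, and 0.17 without *Lhx4* null replicate 2. Of 13 other T-box genes, 7 were tested and 0 passed, with a median of 0.0038. Groups did not overlap for 2 of the 7, beside 14.2% of all genes. *Eomes*, which marks a set of ganglion cells, was the one at or above 1 FPKM without overlap, at a log2 fold change of 0.27 (adjusted p = 0.619).

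**Figure D5:**
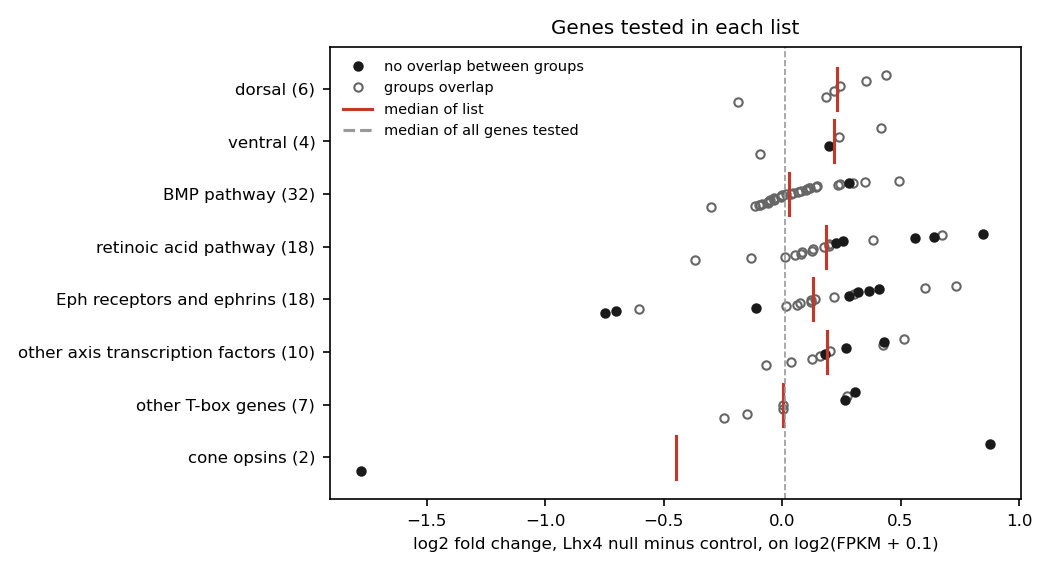
Log2 fold change (*Lhx4* null minus control) of each gene tested in the dorsal and ventral lists and in the 6 further lists, with the number tested in brackets. Filled points are genes whose groups do not overlap, red lines are list medians and the dashed line is the median of all genes tested, 0.011. The dorsal and ventral medians, 0.23 and 0.22, lie close together.

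Cell type markers were read beside these values, from 17 lists. In the bipolar list 5 of 10 genes passed the threshold, all lower in retinas labelled *Lhx4* null, beside 0.224% of all genes tested. These 5, *Bhlhe23*, *Grik1*, *Grm6*, *Scgn* and *Isl1*, were named after their values were seen and had log2 fold changes from -3.78 to -0.70. The list median was -0.93 with 9 of 10 negative, and the exception was *Vsx1* at 0.28 (adjusted p = 0.598). Amacrine genes, led by *Pax6*, summed to 507, 539 and 495 FPKM in control and 577, 581 and 541 FPKM in retinas labelled *Lhx4* null, and those of Müller glia, led by *Crym*, to 518, 531 and 519 FPKM and 581, 572 and 573 FPKM. Neither of these 2 lists held a call. Of the 9 amacrine genes, 4 had no overlap, all higher, beside 14.2% of all genes tested, and the list median was 0.13. Of the 8 genes of Müller glia, 1 had no overlap and the list median was 0.15. The values of *Crym* itself overlapped between the groups. Fibroblast genes summed to 3.25, 3.29 and 2.32 FPKM in control and 5.22, 5.19 and 5.92 FPKM in retinas labelled *Lhx4* null. *Col1a2*, the most abundant of them, passed at an adjusted p of 0.0489, a call kept in 0 of 6 fits without a library. It was also kept in 2 of 8 other settings. The log2 fold change of *Col1a2* was 1.26, and it ranged from 0.95 to 1.38 over these alternatives. The median of the 4 fibroblast genes tested was -0.039, with 2 positive and 2 negative, so the sum followed *Col1a2*, at a mean of 1.79 FPKM in control and 4.36 FPKM in retinas labelled *Lhx4* null.

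With the cone, arterial and pigment lists given above, these made 7 lists whose sums did not overlap, and the sums of the other 10 overlapped. Among the latter the most abundant genes were *Sag* for rods, *Sncg* for ganglion cells, *Calb1* for horizontal cells, *Pdgfra* for astrocytes and optic nerve, *Kdr* for endothelium, *Rgs5* for pericytes, *Gas1* for the ciliary margin, *Cryab* for the lens and *C1qb* for microglia. No marker of the 17 lists was at 0 in all 6 libraries. The part of these shifts in the levels of the dorsal and ventral genes was not tested.

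Genes outside the axis that followed a like course over the 6 libraries were sought for 1 member of each side. Among genes averaging 1 FPKM or more, *Tbx3* had the largest range of the dorsal genes, 0.78 on the log2 scale, and *Vax2* that of the ventral genes, 0.60. Of 12482 genes compared, the closest to *Tbx3* by root mean square difference of centred log2 levels over 6 libraries were *Amot* (0.054), *Dcxr* (0.060) and *Cxcr4* (0.064), the last a chemokine receptor. The closest to *Vax2* were *Vac14* (0.030), *Robo1* (0.032), a receptor in axon guidance, and *Crmp1* (0.034).

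In the GENCODE vM21 annotation of GRCm38, the build that the submitters' notes name, the 10 genes lie on chromosomes 4 (*Ephb2*), 5 (*Tbx3* and *Tbx5*), 6 (*Vax2*), 7 (*Aldh1a3*), 8 (*Efnb2*), 11 (*Tbx2*), 14 (*Bmp4*) and 19 (*Aldh1a1* and *Vax1*). *Tbx3* (chr5:119670669-119684724) and *Tbx5* (chr5:119832668-119885219) are neighbours on the same strand, with 148 kb and 0 protein-coding genes between them. Exons of *Bmp4* share 89 bases with *Gm15217* on the opposite strand, and those of *Tbx3* share 115 bases with the antisense gene *Tbx3os1*. Whether counting used strand is not given in the sources used here, so reads from these stretches, 3.96% and 1.74% of the exon bases, cannot be assigned to 1 strand. The other 8 genes share no exon base with another gene.

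Promoter sequence from RefSeq (GRCm38.p6) was matched for 5 of the 10 genes, in 6 windows of the 250 bases before a start. Of these 5 genes, *Efnb2*, *Ephb2* and *Vax1* were highest in *Lhx4* null replicate 2, whereas *Bmp4* and *Aldh1a1* were not. The windows were searched on both strands for 4 short motifs of factor families at work in the retina. The homeodomain core TAATTA, present in 4.84% of all 32851 windows of that length, the CRX and OTX site TAATCC, present in 6.25%, and the nuclear receptor half-site AGGTCA, present in 14.0%, had 0 matches. The T-box half-site AGGTGTGA, present in 1.12% of all windows, had 1 match, in reverse orientation, before the first of the 2 starts of *Aldh1a1*. Both *Aldh1a1* windows are shown because the match lies before this gene, 5′ to 3′ on the plus strand, at chr19:20492333-20492582 and chr19:20601718-20601967, with the match in capitals.
Aldh1a1 first start: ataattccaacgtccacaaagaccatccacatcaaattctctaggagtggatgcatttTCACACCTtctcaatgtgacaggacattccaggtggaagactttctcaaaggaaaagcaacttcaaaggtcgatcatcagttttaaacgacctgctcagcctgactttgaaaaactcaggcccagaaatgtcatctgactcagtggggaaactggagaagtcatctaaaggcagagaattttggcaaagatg
Aldh1a1 second start: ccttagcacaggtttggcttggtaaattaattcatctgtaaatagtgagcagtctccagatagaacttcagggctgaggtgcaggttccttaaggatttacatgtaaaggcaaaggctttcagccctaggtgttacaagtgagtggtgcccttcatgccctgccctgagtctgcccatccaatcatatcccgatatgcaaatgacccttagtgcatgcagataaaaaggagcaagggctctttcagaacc
A match is a description of the letters in the window and not a binding site. The share of G and C is 42.8% and 46.4% in these windows, beside 44.8% for *Vax1*, 63.2% for *Bmp4*, 68.4% for *Ephb2* and 72.0% for *Efnb2*, and the FPKM of *Aldh1a1* does not separate its starts.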

How the data were processed

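RNA from the P7 retinas of 3 control and 3 *Lhx4* null mice was analysed, 1 library per mouse. The submitters' processing notes name TopHat2, Cufflinks and GRCm38, and the FPKM values per gene were used as deposited by the authors, already scaled for transcript length and library depth. FPKM are not counts, so no count model was fitted. Groups and replicate numbers came from the labels, and 0 columns were unused. For 6 repeated symbols the row of highest mean was kept. The 15200 of 21744 genes that averaged 0.1 FPKM or more were fitted as log2(FPKM + 0.1) with limma 3.58.1 (lmFit, eBayes with trend) in R 4.3.3, *Lhx4* null minus control, with no covariate. P-values were two-sided and adjusted by Benjamini and Hochberg over all genes tested. Plots used Python 3.11.15 and matplotlib 3.10.9. The fit and the estimate of depth were tested on simulated data.

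The members and lists were chosen with earlier results of these data known. The genes named were the 10 members, *Lhx4*, both cone opsins, genes of 6 pathway lists past the threshold or with the 2 largest changes in either direction without overlap at a mean of at least 1 FPKM, the most abundant gene of 17 cell type lists, and the 3 genes closest to 1 dorsal and 1 ventral member. Of the genes this rule names, 2 are not reported here. Genes marked in the text, the 2 retina markers read for identity, *Rpe65* and the opposed pairs were added after values were seen. Alternatives changed the pseudocount, filter, scaling, trend and block, and left out each library in turn.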

Additional observations from a re-analysis of the deposited data

How the results depend on the processing

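No dorsal or ventral gene was called under any of the 14 alternatives, with limma in each. The unadjusted count below 0.05 was 0 of 10 in the reported fit and at most 2 of 10 elsewhere. The 34 calls over all genes became 0 with no filter on low values, where 1507 genes were below an unadjusted p of 0.05, and 15 with a replicate block. Leaving out 1 library gave 15 to 31 calls, with the fewest without *Lhx4* null replicate 3. These fits hold fewer libraries, and for the filter and the block the cause was not tested. The dorsal median log2 fold change ranged from 0.15 to 0.34 over the fits without a library, and the ventral one from 0.099 to 0.30. Members without overlap numbered 1 to 5 in those fits, where 19.3% to 32.2% of all genes had none, and 1 in each of the other 8, at 10.9% to 14.3%. The log2 fold change of *Vax1* turned from -0.093 to 0.0015 with a pseudocount of 1 FPKM and ranged from -0.52 to 0.32 without a library. The other 9 members kept their sign under every alternative that tested them, and a filter of 1 FPKM left 7 of 10 to test. Same-numbered libraries did not all deviate together (correlations of -0.18, -0.047 and 0.19 over 12485 genes). Control replicate 3 and *Lhx4* null replicate 3 correlated best with each other, whereas the other libraries did not correlate best with their own number. The largest correlation, 0.30, joined control replicate 2 and *Lhx4* null replicate 1. These values cannot show whether same-numbered mice were paired in the experiment. *Vax1*, *Bmp4* and *Aldh1a3* each rested on an estimated 45 fragments or fewer per library.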
